A study of Mus musculus with 31 samples.

Results

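The ISG15 conjugation system is encoded by a small group of genes. Followed here by name were 6 genes: Isg15, Uba7, Ube2l6, Herc6 and Usp18 of this system, and Rnf213. The rule for membership is the role of each gene. It uses no measured value, but the members were chosen with earlier results of these data known. The study itself names Rnf213 among genes that tau induced in microglia and that were lower without Cgas. All 6 were found in both count tables, of 54532 genes listed in microglia and 48795 in hippocampus. All 6 passed the filter on low counts, which left 13675 genes tested in microglia and 16453 in hippocampus.

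Isg15 encodes a ubiquitin-like protein that interferon induces in many cell types. It is attached to target proteins by a cascade like that of ubiquitin, in which Uba7 is the activating enzyme (E1), Ube2l6 the conjugating enzyme (E2) and Herc6 the main ligase (E3) in the mouse. Usp18 removes ISG15 from its targets and also restrains signalling from the type I interferon receptor. Rnf213 is a very large RING ligase with an ATPase motor, known as a susceptibility gene for moyamoya disease and described as binding ISG15-modified proteins. cGAS, encoded by Cgas, senses DNA in the cytosol and signals through STING to interferon.

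The data comprised bulk RNA-seq of 2 experiments. Hippocampi came from 7 non-transgenic (Ntg) and 6 P301S mice of 8 to 9 months, 1 library per mouse. P301S mice carry human tau with the P301S mutation, expressed from the mouse prion protein promoter in the widely used line. The Cgas genotype of these mice is not given in the labels and no Cgas knockout hippocampi were analysed here. Primary microglia came from the cortices of Cgas+/+ (wild-type, WT) and Cgas-/- (knockout, KO) pups of postnatal days 1 to 3. Cells of each genotype received vehicle, tau fibrils of the 0N4R form at 2 µg/ml or herring testis DNA (HT-DNA) at 1 µg/ml, and RNA was taken 6 h later. Each of these 6 groups had 3 libraries. The study's legends call the microglial samples biologically independent, while the labels do not say whether they came from separate litters or cultures.

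Total counts per library were 17037459 to 25174764 in microglia and 25953296 to 35779977 in hippocampus. Values are given as CPM, the usual library-scaled read count, with libraries scaled by the trimmed mean of M values. Cgas was at 23.2 ± 4.21 CPM (SD, n = 3) in vehicle-treated WT and 4.93 ± 0.748 CPM in vehicle-treated KO microglia, and Mapt, which encodes tau, was at 572 ± 46.9 CPM (SD, n = 7) in Ntg and 997 ± 88.6 CPM (n = 6) in P301S hippocampi. The summed level of 7 general microglia markers was 9203 to 10400 CPM in WT and 6903 to 7329 CPM in KO cultures, and all 5 T cell markers summed to at most 0.209 CPM in any microglial library. The homeostatic marker Siglech was at 0 in every vehicle-treated culture of both genotypes.

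Isg15 lies on chromosome 4 at chr4:156199424-156200818 (minus strand, GRCm38), Uba7 at chr9:107975505-107984060, Ube2l6 at chr2:84798828-84810335, Herc6 at chr6:57581000-57664632, Usp18 at chr6:121245906-121270917 and Rnf213 at chr11:119393100-119487418, the last 5 on the plus strand. RefSeq promoter windows, 250 bases before to 50 after the transcription start in GRCm38.p6, were found for 5 of the 6 genes, and Usp18 had no entry. The window of Rnf213, chr11:119389849-119390148, ended before the gene start given above, so it may not be the promoter of the gene as located there. Interferon-stimulated genes are known for an element bound by ISGF3 and interferon regulatory factors, whose core was searched as GAAANNGAAA on both strands. The core stood in 1 of the 5 windows, that of Isg15, against 3.44% of 32851 promoter windows. There it matched 3 times in overlap over 22 bases that began 78 bases before the start. The window of Isg15 is shown for these matches (in capitals). Those of the enzymes Uba7 and Ube2l6 are shown as examples without a match, and the windows of Herc6 and Rnf213 also held none.
Isg15, chr4:156200769-156201068, minus strand: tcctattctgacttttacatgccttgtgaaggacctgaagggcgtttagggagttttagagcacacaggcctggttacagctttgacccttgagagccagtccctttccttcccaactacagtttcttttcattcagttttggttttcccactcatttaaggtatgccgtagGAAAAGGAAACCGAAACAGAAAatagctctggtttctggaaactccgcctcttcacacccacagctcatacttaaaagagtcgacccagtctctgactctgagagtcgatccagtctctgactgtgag
Uba7, chr9:107975317-107975616, plus strand: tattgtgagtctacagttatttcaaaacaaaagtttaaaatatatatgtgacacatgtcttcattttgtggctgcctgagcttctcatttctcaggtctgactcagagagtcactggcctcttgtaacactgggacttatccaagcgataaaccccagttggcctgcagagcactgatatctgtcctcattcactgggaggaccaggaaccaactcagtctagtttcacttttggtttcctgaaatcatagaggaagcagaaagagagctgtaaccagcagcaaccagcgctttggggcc
Ube2l6, chr2:84798578-84798877, plus strand: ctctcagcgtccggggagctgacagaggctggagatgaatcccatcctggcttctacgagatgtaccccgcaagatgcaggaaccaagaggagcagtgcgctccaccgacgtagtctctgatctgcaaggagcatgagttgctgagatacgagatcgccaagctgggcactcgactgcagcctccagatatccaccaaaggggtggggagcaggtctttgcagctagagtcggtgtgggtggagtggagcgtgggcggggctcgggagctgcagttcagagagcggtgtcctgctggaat

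The first comparison asked how the conjugation genes and Rnf213 respond to tau fibrils in WT microglia. All 6 rose, by log2 1.01 to 2.02, and all 3 tau libraries were above all 3 vehicle libraries for each gene, as was the case for 21.7% of all genes tested. A gene was called where edgeR's quasi-likelihood test gave a Benjamini-Hochberg adjusted p under 0.05 and the log2 fold change was beyond 1. By this rule 2.89% of all genes tested rose with tau, and the median log2 fold change was 1.44 over the 6 genes and -0.01 over all genes. In bulk RNA, a larger share of responding cells and more RNA per cell cannot be told apart. The 4 endothelial markers summed to 105 to 125 CPM with vehicle and 141 to 176 CPM with tau, with 1 of 2 tested called higher. Of 5 astrocyte markers tested 1 was called higher (sums of 4.80 to 6.07 and 7.83 to 9.82 CPM). Of 7 homeostatic markers tested 1 was lower, and of 7 general microglia markers 0 were called. The part of these markers in the members' rise was not tested.

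Isg15, the modifier, was at 147.3, 70.5 and 108.6 CPM with vehicle and at 471.8, 369.7 and 478.4 CPM with tau. The groups did not overlap, and the first vehicle library stood highest in its group, as it did for each of the 6 genes. The fitted rise was log2 2.02 ± 0.15 (SE), 4.04-fold, with an adjusted p of 8.67e-12 by edgeR's quasi-likelihood test. Uba7, the E1, went from 99.6, 72.4 and 86.4 CPM to 200.2, 172.1 and 191.4 CPM, a log2 rise of 1.13 (95% interval 0.97 to 1.28). Ube2l6, the E2, was at 88.2, 66.6 and 71.4 CPM with vehicle and 165.9, 137.2 and 153.3 CPM with tau. Its rise, log2 1.01 (0.86 to 1.16), lay at the fold threshold. It fell under that threshold, to log2 0.92, 0.97 and 0.96, without WT vehicle replicate 2, WT vehicle replicate 3 or WT tau replicate 1, with the adjusted p at most 4.68e-10 in all of these fits.

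Herc6, the ligase, was at 67.9, 36.6 and 52.9 CPM with vehicle and at 177.0, 157.3 and 186.0 CPM with tau, a log2 rise of 1.73 (1.49 to 1.96). Usp18, the protease, went from 130.6, 64.1 and 93.6 CPM to 308.0, 250.6 and 306.8 CPM, a log2 rise of 1.59 (1.30 to 1.87). Thus the gene for removal of the modifier rose beside those for its attachment. Rnf213 was at 1537, 969 and 1277 CPM with vehicle and at 3245, 2824 and 3240 CPM with tau, a log2 rise of 1.30 (1.11 to 1.48). Leaving out each library in turn gave log2 rises of 1.78 to 2.30 for Isg15 and 1.14 to 1.47 for Rnf213.

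HT-DNA, a direct ligand of cGAS, served as the comparison for a cytosolic DNA signal. All 6 genes rose with it in WT microglia, where 5.29% of all genes tested rose. The log2 rises were 2.70 for Isg15 (616.9, 778.0 and 722.6 CPM), 1.65 for Uba7, 1.57 for Ube2l6, 2.23 for Herc6, 2.37 for Usp18 and 1.71 for Rnf213 (4209, 4115 and 4063 CPM). This comparison and that of tau share the vehicle libraries. The 4 endothelial markers moved with HT-DNA as well, from sums of 105 to 125 CPM with vehicle to 378 to 389 CPM, with 2 of 2 tested called higher. Of 5 astrocyte markers tested 1 was called higher (sums of 4.80 to 6.07 and 11.3 to 14.6 CPM), and of 3 oligodendrocyte markers 1 (83.8 to 94.7 and 107.8 to 114.4 CPM). Their part in the members' rise was not tested. When tau was set directly against HT-DNA, all 3 tau libraries were below all 3 HT-DNA libraries for each of the 6 genes, as for 22.9% of all genes, and the tau level was 57.9% (Usp18) to 75.2% (Rnf213) of the HT-DNA level. The log2 differences were -0.68 for Isg15, -0.53 for Uba7, -0.56 for Ube2l6, -0.51 for Herc6, -0.79 for Usp18 and -0.41 for Rnf213, with adjusted p from 3.58e-07 to 0.000524 by edgeR. All 6 were lower at any fold, against 17.8% of all genes, and 0 lay beyond log2 1, against 1.49% of all genes (6 at an unadjusted p under 0.05, and 0 beyond log2 1 with DESeq2). The agents were given at different doses, so the differences belong to these doses.

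**Figure D1:**
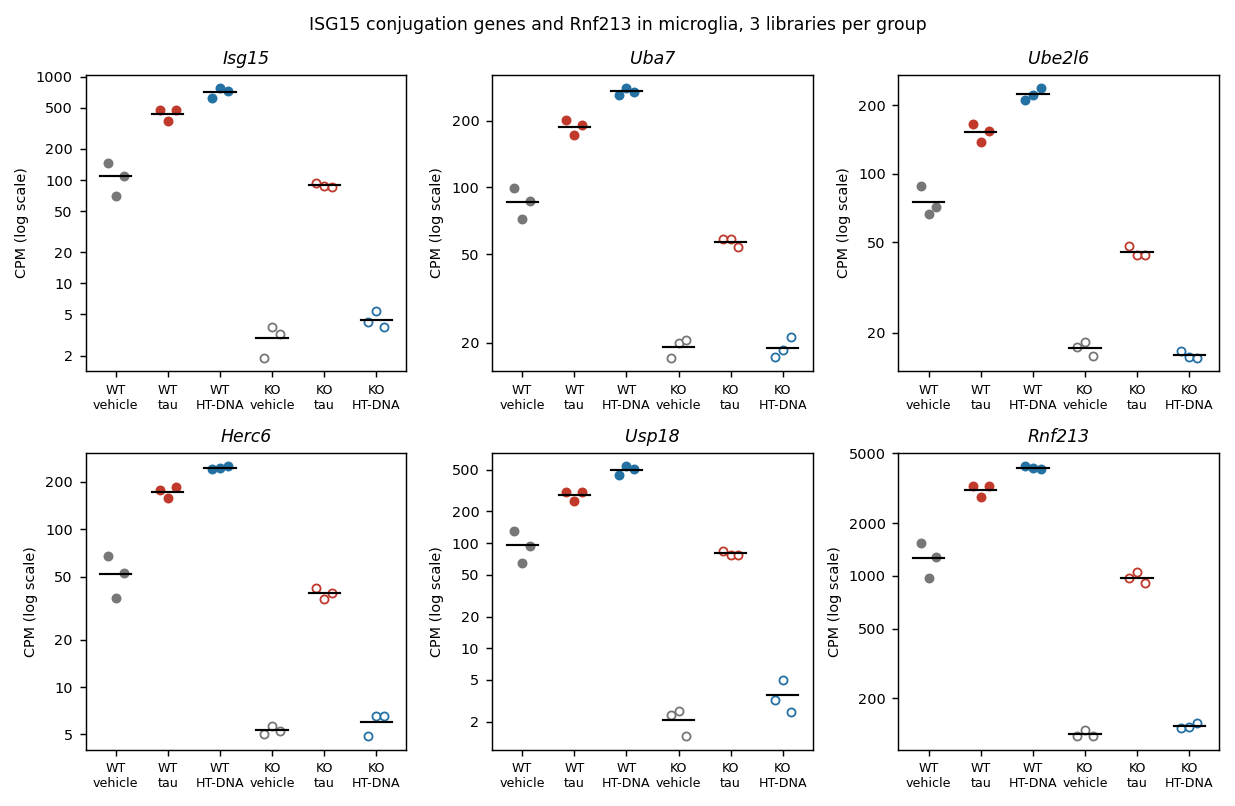
CPM on log axes (y) of the 6 genes in each microglial library by group (x), with filled points for WT, open points for KO, grey for vehicle, red for tau, blue for HT-DNA and a bar at the mean of 3 libraries. In each panel WT HT-DNA stood highest, tau-treated KO cells lay at 60.1% to 83.1% of the WT vehicle mean, and KO vehicle and KO HT-DNA libraries lay at the bottom.

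The knockout cultures started from much lower levels. With vehicle, all 6 genes were called lower in KO than in WT cells, where 7.35% of all genes were called lower. Every KO library was below every WT library for all 6, as for 30.9% of all genes. Isg15 was at 1.90, 3.75 and 3.21 CPM in KO cells, from 34 to 73 counts, which is 2.71% of the WT mean and a log2 difference of -5.18 ± 0.23 (SE). Usp18 was at 2.29, 2.50 and 1.45 CPM, 2.17% of the WT mean, with a log2 difference of -5.55. The modifier and its protease thus had the largest differences of the 6 genes. Rnf213 was at 122.5, 132.5 and 121.9 CPM (log2 -3.33) and Herc6 at 5.02, 5.68 and 5.28 CPM (log2 -3.30), 9.96% and 10.2% of the WT means. Uba7 at 17.1, 19.9 and 20.5 CPM and Ube2l6 at 17.4, 18.2 and 15.8 CPM kept 22.3% and 22.8% of the WT means, with log2 differences of -2.16 and -2.14. The adjusted p of edgeR's test was at most 1.25e-15 for all 6.

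Markers of other cells also differed between the WT and KO vehicle cultures. The 4 endothelial markers summed to 105 to 125 CPM in WT and 27.5 to 32.5 CPM in KO libraries, with Cldn5 at 0 in KO, and both tested ones were lower. The 4 fibroblast markers summed to 2.48 to 4.16 CPM in WT and 0.0521 to 0.220 CPM in KO, with Lum at 0 in KO, and the 3 tested were lower. Of the 6 astrocyte markers, 5 were tested and 2 were lower, with sums of 4.80 to 6.07 CPM and 0.990 to 1.51 CPM. Of 7 general microglia markers 0 were called (median log2 -0.53), and of the 8 homeostatic ones 7 were tested and 2 were lower, with sums of 790 to 806 CPM and 280 to 296 CPM. Of 8 disease-associated microglia markers 1 was higher in KO, with sums of 58430 to 59100 CPM in WT and 68550 to 70000 CPM in KO. Of 3 oligodendrocyte markers tested 1 was lower, and of 2 border macrophage markers 1. The part of these differences in the members' levels was not tested.

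HT-DNA changed none of the 6 genes detectably in KO cells, where 0.0146% of all genes rose. Isg15 was at 4.19, 5.38 and 3.80 CPM with HT-DNA, a log2 difference of 0.58 (95% interval -0.15 to 1.32), and Usp18 at 3.23, 4.98 and 2.47 CPM, 0.81 (-0.02 to 1.65). These intervals are wide, and both genes had few counts. For Uba7 the log2 difference was -0.01 (-0.23 to 0.20), for Ube2l6 -0.10 (-0.32 to 0.12), for Herc6 0.19 (-0.28 to 0.66) and for Rnf213 0.15 (-0.05 to 0.34). The adjusted p lay between 0.421 and 0.977, 0 of the 6 had an unadjusted p under 0.05, and DESeq2 also called 0. The KO libraries with HT-DNA held 0.631% (Isg15) to 7.14% (Ube2l6) of the levels of WT cells with HT-DNA. All 6 were lower in that comparison, with log2 differences of -3.81 to -7.30, where 11.8% of all genes were lower. The 4 endothelial markers summed to 378 to 389 CPM in these WT and 33.1 to 37.2 CPM in these KO libraries, and 2 of 2 tested were lower. Of astrocyte, fibroblast and homeostatic markers tested, 4 of 5, 3 of 3 and 4 of 7 were lower. Of 7 general microglia markers 1 was lower, and of 8 disease-associated ones 1 was higher. The part of these markers in the members' levels was not tested.

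Tau fibrils raised all 6 genes in KO cells, where 2.46% of all genes rose. Isg15 reached 94.6, 88.4 and 86.6 CPM, a log2 rise of 4.91 ± 0.23 (SE), 30.0-fold over KO vehicle. Usp18 reached 84.7, 77.9 and 76.9 CPM, a log2 rise of 5.28 ± 0.25, 39.0-fold. Every KO tau library was above every KO vehicle library for each of the 6 genes, as for 17.4% of all genes. Rnf213 reached 969.7, 1050 and 906.2 CPM (log2 2.96), and Herc6 42.7, 36.2 and 39.4 CPM (log2 2.89). The enzymes Uba7, at 58.5, 58.4 and 54.2 CPM, and Ube2l6, at 48.0, 44.1 and 43.9 CPM, rose by log2 1.57 and 1.41.

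The tau-treated KO cells nevertheless stayed under the tau-treated WT cells. All 6 genes were called lower, where 7.41% of all genes were, and every KO library was below every WT library for all 6, as for 29.1% of all genes. The KO level was 20.4% (Isg15) to 31.4% (Rnf213) of the WT level, with log2 differences of -2.29 for Isg15, -1.72 for Uba7, -1.75 for Ube2l6, -2.14 for Herc6, -1.85 for Usp18 and -1.67 for Rnf213. The 4 endothelial markers differed in the same direction, with sums of 141 to 176 CPM in tau-treated WT and 30.0 to 33.9 CPM in tau-treated KO libraries. All 5 tested astrocyte markers, all 3 tested fibroblast markers and 2 of 7 tested homeostatic markers were also lower, with sums of 7.83 to 9.82 and 1.30 to 1.81 CPM, 0.982 to 4.68 and 0.196 to 0.353 CPM, and 819 to 844 and 347 to 355 CPM in WT and KO. Of 7 general microglia markers 1 was lower, as were 1 of 2 neuronal, 1 of 3 oligodendrocyte and 1 of 2 border macrophage markers tested. Of 8 disease-associated microglia markers 1 was higher in KO. The part of these markers was not tested.

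The interaction of tau with genotype, tested as the log2 response of KO cells minus that of WT cells, was above 0 for all 6 genes, where 3.61% of all genes were called higher without a minimum fold. It was 2.89 ± 0.30 (SE) for Isg15 and 3.70 ± 0.31 for Usp18, with adjusted p of 1.28e-07 and 2.88e-09 by edgeR. For Rnf213 it was 1.66 (95% interval 1.39 to 1.92) and for Herc6 1.16 (0.72 to 1.60). For the E1 and E2 it was smaller, 0.44 for Uba7 (adjusted p = 0.0251) and 0.40 for Ube2l6 (adjusted p = 0.0436). On the CPM scale the order of the genotypes was the opposite: the KO mean gained 86.9 CPM of Isg15 and the WT mean 331 CPM, and over the 6 genes the KO gain was 26.2% (Isg15) to 46.1% (Rnf213) of the WT gain. The larger log2 response and the smaller gain thus hold together, over KO baselines at log2 differences of -2.14 to -5.55 from WT. The calls of Uba7 and Ube2l6 rested on single libraries. Both were lost, leaving 4 genes called, without WT vehicle replicate 1, WT tau replicate 2, KO vehicle replicate 1 or KO tau replicate 2. Ube2l6 alone was lost without WT tau replicate 3, KO vehicle replicate 3, KO tau replicate 1 or KO tau replicate 3, and also with DESeq2 (adjusted p = 0.0901), RLE scaling (0.0545) and a fit of only the groups compared (0.0656).

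The interaction of HT-DNA with genotype was below 0 for all 6 genes, where 16.6% of all genes were called lower. It was -2.11 for Isg15, -1.67 for both Uba7 and Ube2l6, -2.05 for Herc6 and -1.56 for both Usp18 and Rnf213. Without KO vehicle replicate 2, Usp18 was not called (log2 -1.39, adjusted p = 0.0581). The same 6 genes thus had interactions of opposite sign for the tau and the HT-DNA treatments, which share the vehicle libraries of both genotypes.

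Ordered by mean level, each of the 6 genes ran from WT HT-DNA through WT tau, WT vehicle and KO tau down to KO HT-DNA and KO vehicle, except that KO vehicle was above KO HT-DNA for Uba7 and Ube2l6. The KO vehicle and KO HT-DNA neighbours did not pass the test for any of the 6, although every KO HT-DNA library was above every KO vehicle library for Isg15 and Rnf213, as for 10.4% of all genes. The WT vehicle and KO tau neighbours were compared after their values had been seen. Isg15 was at 108.8 ± 38.4 CPM (SD, n = 3) in WT vehicle and 89.9 ± 4.19 CPM in KO tau, a log2 difference of -0.28 (95% interval -0.58 to 0.03, adjusted p = 0.123 by edgeR). Usp18 was at 96.1 ± 33.3 and 79.8 ± 4.28 CPM, a log2 difference of -0.27 (-0.56 to 0.03, adjusted p = 0.125). Both rested on single WT vehicle libraries: the log2 differences were 0.01 and 0.03 without WT vehicle replicate 1, and -0.51 (adjusted p = 0.000187) and -0.49 (adjusted p = 0.000304) without WT vehicle replicate 2. Uba7 was lower in KO tau by log2 -0.60, Ube2l6 by -0.74, Herc6 by -0.41 and Rnf213 by -0.37. These 4 were lower at any fold, against 24.5% of all genes, and 0 of the 6 lay beyond log2 1, against 5.74% of all genes (4 at an unadjusted p under 0.05, and 0 beyond log2 1 with DESeq2). Without WT vehicle replicate 1, Herc6 did not differ beyond the spread (log2 -0.17, adjusted p = 0.166).

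**Figure D2:**
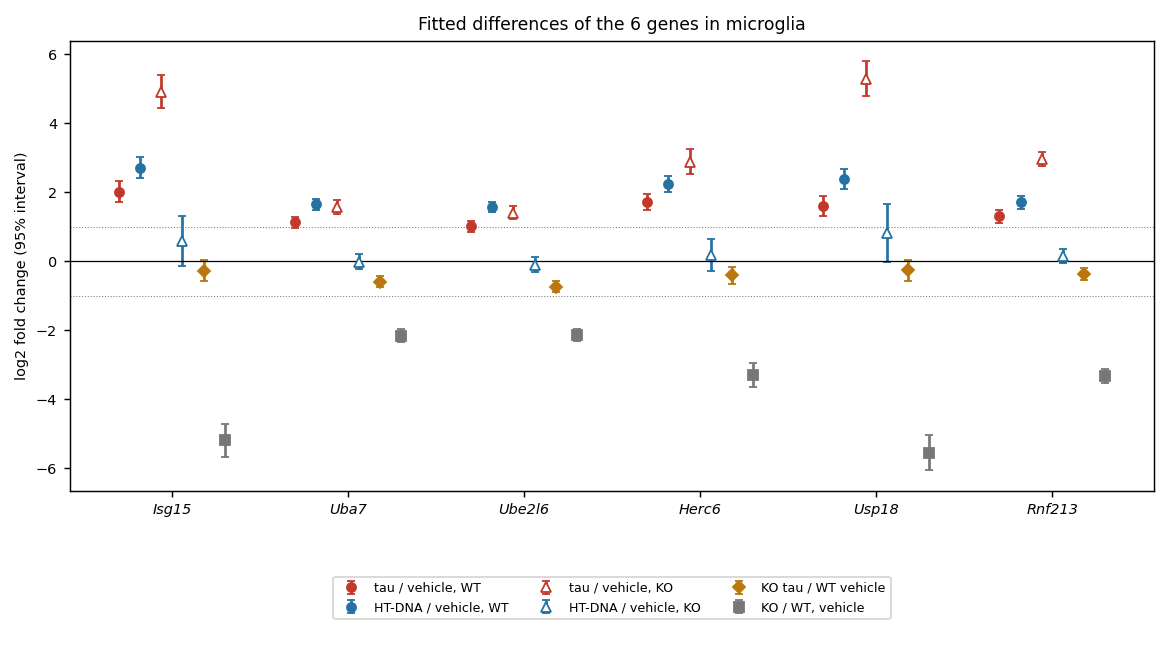
Fitted log2 fold changes with 95% intervals (y) of the 6 genes (x) in 6 microglial comparisons, with dotted lines at 1 and -1. The tau response of KO cells (open red triangles) was above that of WT cells (red circles) for each gene, the HT-DNA response of KO cells (open blue triangles) had point estimates within 1 of 0, and the vehicle-treated genotypes (grey squares) differed by log2 -2.14 to -5.55.

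The genes of other ubiquitin-like systems were taken as a list of counterparts: 8 E1 components, 8 E2 enzymes, 4 HERC ligases and 13 modifiers, of which 32 were tested in each experiment (Ubd was not). In tau-treated WT microglia 0 of the 32 were called, where 2.89% of all genes rose, with a median log2 fold change of 0.07. The same count of 0 held for tau in KO cells (median 0.00), for HT-DNA in WT (0.06) and KO cells (0.02), and for the vehicle-treated genotypes (0.06). Of all genes, 2.46%, 5.29% and 0.0146% rose with these treatments, and 7.35% were lower in vehicle-treated KO cells. These counts are those of edgeR with the minimum fold. Ube2l3, a close relative of Ube2l6 that serves ubiquitin, had a log2 difference of 0.08 ± 0.04 (SE) with tau in WT cells. Uba1, the main E1 of ubiquitin, had 0.10 ± 0.04. The HERC ligases Herc1 to Herc4 had log2 differences of -0.01 to 0.20 in the same comparison, beside 1.73 for Herc6. Between the genotypes with HT-DNA, 2 of the 32 were lower in KO cells, Herc1 (log2 -1.02) among them. There 11.8% of all genes were lower, so this count is no result about the list.

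**Figure D3:**
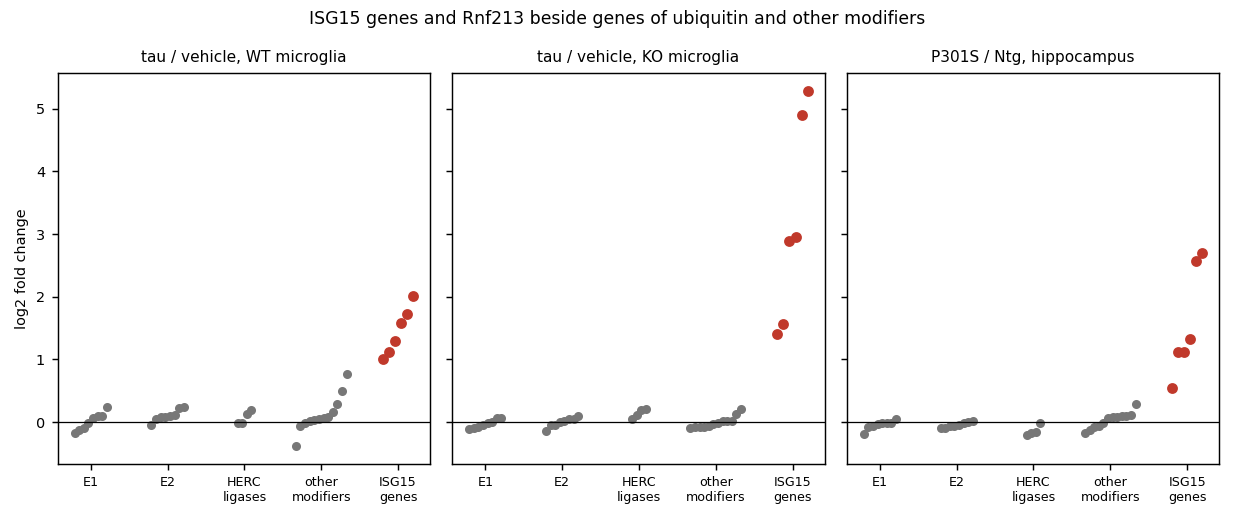
Log2 fold changes (y) of 32 genes of ubiquitin and other modifiers (grey) by class and of the 6 members, Rnf213 included (red), in 3 comparisons (panels), 1 point per gene. The grey points span -0.38 to 0.77 with tau in WT cells, -0.14 to 0.21 with tau in KO cells and -0.20 to 0.29 in P301S hippocampi, and the red points start at 1.01, 1.41 and 0.55.

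A list of 14 proteins that bind ISG15 or USP18, are known targets, or cleave ISG15 in other settings was read against the same shares of all genes. Of the 13 tested in microglia, 1 rose with tau in WT cells, where 2.89% of all genes rose, which is no result about the list: Stat2, through which USP18 reaches the interferon receptor, at log2 1.02. In KO cells 2 rose with tau, where 2.46% of all genes rose. They were Stat2 (log2 2.74) and Trim25 (1.05), a ubiquitin ligase that is itself modified by ISG15. The interaction of tau with genotype was positive for Stat2 (1.72) and Trim25 (0.74) and negative for Sqstm1, an autophagy receptor (-0.33). Of 13 interferon signalling genes, 4 rose with tau in WT cells, among them Irf7 (log2 1.57), Irf1 (1.08) and Stat2. In KO cells 5 rose with tau and 0 with HT-DNA (2.46% and 0.0146% of all genes), and in WT cells 5 rose with HT-DNA (5.29% of all genes). With vehicle, 7 of the 13 were lower in KO cells (7.35% of all genes), Cgas included, and 0 were higher. The interaction of tau with genotype was positive for 4 of the 13 (3.61% of all genes), with Irf7 (3.26), Stat2 and Irf9 (1.21) among them, and negative for Tyk2 (-0.22). Stat2 and Ifnar2 stand in both lists, and Cgas is the targeted gene.

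The genes whose pattern over the 6 microglial groups was nearest to that of each member were found by the root-mean-square (RMS) difference of centred log2 CPM, which is a description. For both Isg15 and Usp18 the nearest gene was Irf7 (RMS 0.155 and 0.097) and the next was the other of this pair (0.160). Outside the members, Isg15 was then nearest to Ifi206 (0.208) and Mx2 (0.310), and Usp18 to Oasl2 (0.291) and Ifi206 (0.307). Uba7 and Ube2l6 were each other's nearest gene of all tested, at 0.062. Outside the members, Uba7 was nearest to Mov10 (0.087), Sass6 (0.126) and Tpst1 (0.132), and Ube2l6 to Mov10 (0.107), Trafd1 (0.113) and Nod1 (0.127). Rnf213 was nearest to the non-members Dhx58 (0.045), Slfn8 (0.046) and Ddx58 (0.062), and Herc6 to Phf11d (0.123), Mndal (0.152) and Phf11b (0.162). For these members the nearest other member was Herc6 at rank 10 and Rnf213 at rank 7 of all genes tested (0.206). Isg15 and Usp18, whose KO vehicle levels were the lowest relative to WT, thus had Irf7 and Ifi206 in common among these genes.

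In the hippocampus the question was whether the same genes differ in mice with tauopathy. The minimum log2 fold change for a call was 0.5 in tissue, with the same limit on the adjusted p. By this rule 3 of the 6 genes were higher in P301S than in Ntg mice, where 1.32% of all genes were higher: Usp18 (log2 2.71 ± 0.54, SE), Isg15 (2.57 ± 0.56) and Uba7 (1.33 ± 0.25). The adjusted p of edgeR's quasi-likelihood test was 0.0303, 0.0396 and 0.0303. With sex as a covariate 2 of these were called, and Isg15 was not (log2 2.58, adjusted p = 0.0607). Herc6 (1.12 ± 0.27, adjusted p = 0.0548), Rnf213 (1.11 ± 0.28, adjusted p = 0.0605) and Ube2l6 (0.55 ± 0.19, adjusted p = 0.168) did not pass. The median over the 6 genes was log2 1.22 and over all genes 0.00. These calls rested on the set of mice. Leaving out any of Ntg mice 35, 46, 61, 62, 68 or 71, or of P301S mice 29, 36 or 65, left 0 called. Without P301S mouse 43 there were 6 calls and without mouse 63 there were 5. The log2 differences themselves kept their sign and ranged from 2.01 to 2.83 for Isg15, 1.19 to 1.47 for Uba7 and 2.27 to 2.93 for Usp18 in these fits.

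Isg15 ran from 0.590 through a median of 1.02 to 2.18 CPM in the 7 Ntg mice and from 1.05 through 5.78 to 16.8 CPM in the 6 P301S mice. Usp18 ran from 0.480 through 0.807 to 1.25 CPM in Ntg and from 0.877 through 5.83 to 12.9 CPM in P301S mice. Both genes were at low counts in Ntg mice, 16 to 66 and 13 to 42 per library. In P301S mice the levels fell apart: Isg15 was at 5.39, 6.17, 16.8 and 8.46 CPM in mice 29, 36, 65 and 77 and at 1.05 and 1.12 CPM in mice 43 and 63. The last 2 lay within the Ntg range, so the groups overlapped.

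Uba7 ran from 1.61 through 2.39 to 2.69 CPM in Ntg and from 2.49 through 5.73 to 7.77 CPM in P301S mice. Herc6 ran from 2.52 through 2.65 to 4.24 CPM and from 2.61 through 5.87 to 10.9 CPM. Ube2l6 ran from 2.89 through 4.02 to 4.70 CPM and from 3.61 through 6.31 to 8.22 CPM. For the E2, mice 43 and 63 again had the lowest P301S levels, both within the Ntg range. Rnf213 ran from 6.98 through 8.62 to 11.5 CPM in Ntg and from 7.50 through 17.4 to 30.6 CPM in P301S mice. For each of the 6 genes the groups overlapped, while 0.438% of all genes had every P301S mouse above every Ntg mouse.

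**Figure D4:**
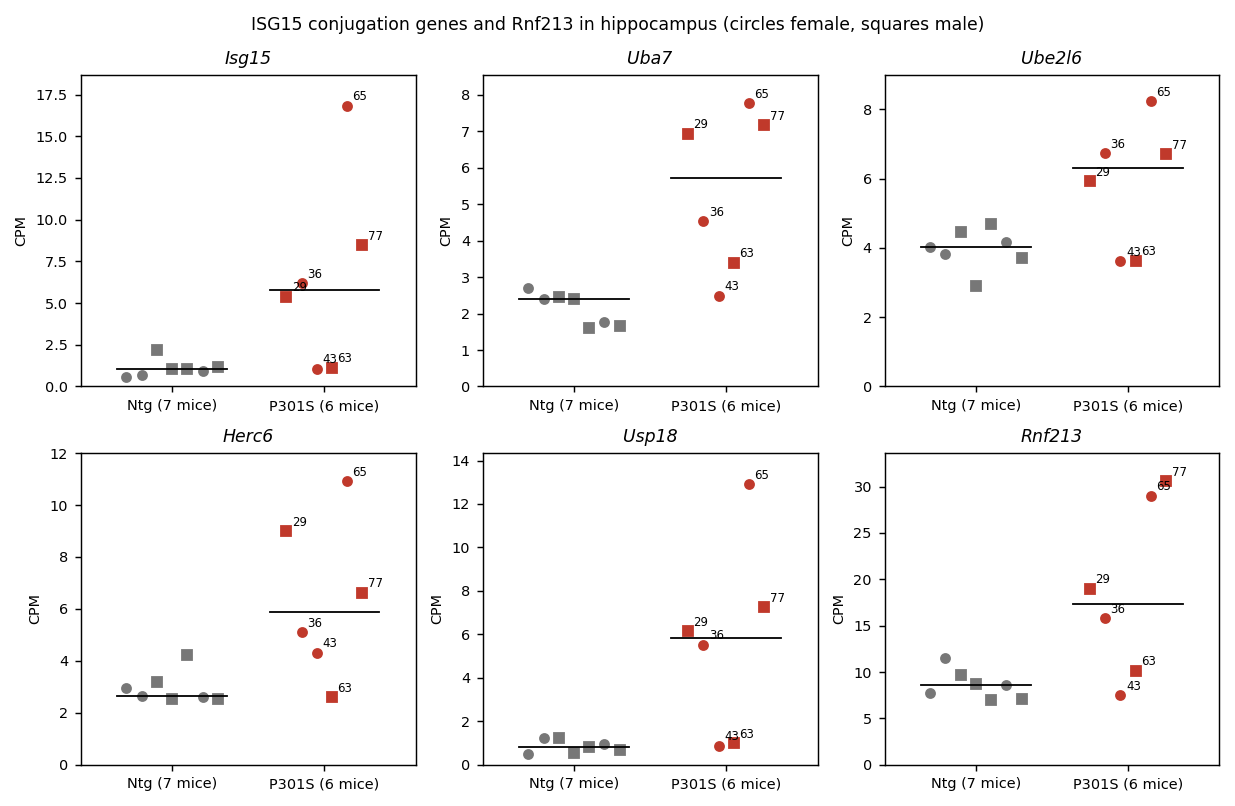
CPM (y) of the 6 genes in each hippocampus by genotype (x), with circles for females, squares for males, mouse numbers beside the P301S points and a line at the median. Mice 29, 36, 65 and 77 lay above every Ntg mouse for all 6 genes, and mice 43 and 63 for 1 gene each.

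Mice 29, 36, 65 and 77 were above all Ntg mice for 6 of the 6 genes, and these were 2 females and 2 males. Mouse 43, a female, was above them for 1 gene, Herc6, and mouse 63, a male, for 1 gene, Uba7. Levels of general and disease-associated microglia markers were arranged alike. The mean log2 CPM of the 7 general microglia markers was 5.67 to 6.49 in the first 4 mice, 4.74 and 4.95 in mice 43 and 63, and 4.77 to 4.99 in Ntg mice. The mean of 8 markers of disease-associated microglia was 5.27 to 6.56 in the first 4, 3.54 and 4.30 in mice 43 and 63, and 3.23 to 3.83 in Ntg mice. The mean of the 8 homeostatic markers was 4.72, 4.81, 5.25 and 4.88 in mice 29, 36, 65 and 77. It was 4.18 and 4.40 in mice 43 and 63 and 4.44 to 4.74 in Ntg mice, a range that held mouse 29. None of these markers was at 0. Of the general markers 2 of 7 were called higher in P301S mice, of the disease-associated ones 3 of 8 and of the homeostatic ones 0 of 8. There 1.32% of all genes were higher. With the mean of the homeostatic markers as a covariate 3 genes were called (Uba7, Usp18 and Rnf213), Isg15 at log2 1.51 (adjusted p = 0.0675). With the mean of the general markers, added after the values were seen, 0 were called and the log2 differences were 0.54 for Isg15, 0.66 for Usp18, 0.63 for Uba7 and -0.0031 for Ube2l6. The number of microglia and the level of these genes per cell cannot be told apart in these libraries. Of 6 astrocyte markers 1 was called higher in P301S mice, and of 6 neuronal ones 0 were called.

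The interaction of sex with the transgene was called for none of the 6 genes and 0% of all genes with edgeR, with 0 of the 6 at an unadjusted p under 0.05 and 0 called by DESeq2. The 95% intervals were wide, from -3.99 to 0.87 on the log2 scale for Isg15 and from -0.73 to 1.56 for Uba7. Differences between the sexes anywhere in these ranges were thus not excluded.

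In P301S mice 1.32% of all genes were called higher, the share for the list counts given here. Of the 32 counterparts tested in hippocampus 0 were called in P301S mice (median log2 -0.02, range -0.20 to 0.29). Of the 14 partner genes 1 was higher, Itgb2, the integrin chain shared by leukocytes and part of a receptor for free ISG15 (log2 1.80 ± 0.33, adjusted p = 0.0303 by edgeR). Of 12 interferon signalling genes tested 2 were higher, Irf7 (log2 2.42) and Irf9 (1.24). Over the 13 mice the non-member pattern nearest to Isg15 was that of Irf7 (RMS 0.224), Ifit3 (0.247) and Ifit3b (0.300), and the nearest to Usp18 that of Oasl2 (0.201), Irf7 (0.235) and Ifi27l2a (0.272). Uba7 was nearest to Irf9 (0.145), Gbp5 (0.188) and Trim34a (0.200), and Rnf213 to Gbp7 (0.160), Oas1b (0.179) and Irf9 (0.196). Herc6 was nearest to Plekha4 (0.233), AW112010 (0.250) and Tap1 (0.254), and Ube2l6 to Trim21 (0.109), Rgs10 (0.136) and S100a13 (0.136). The nearest other member ranked 4 for Isg15, 6 for Usp18, 7 for Uba7 and 10 for Rnf213 among all genes tested. It ranked only 115 for Herc6 and 2290 for Ube2l6. These likenesses also hold the shift between mice with high and low microglial markers.

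Reads of overlapping genes bear on some of these values. The antisense transcript A930037H05Rik at the Rnf213 locus had 54 to 106 counts per hippocampus, up to 36.7% of the Rnf213 count of the same mouse, and at most 0.354% in microglia. Genes that overlap Usp18 and Uba7 had at most 14.8% and 12.4% of the member's count in hippocampus and at most 0.866% in microglia. Of the genes that overlap Herc6, the antisense one had at most 1.25% of its count in hippocampus and 0.306% in microglia, and the same-strand one had 0 counts. Ube2l6 had no overlapping gene. Whether counting used strand is not given in the sources used here, which bears on Rnf213, Usp18 and Herc6, each with an antisense partner. The gene that overlaps Uba7 lies on the same strand, where reads could be divided between the 2 genes in either case.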

How the data were processed

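Libraries were 18 of primary microglia and 13 of hippocampi, grouped by their labels. The authors deposited raw read counts per gene, 1 table per experiment, with no normalization. The submitters' processing notes name GRCm38, edgeR and limma, and the aligner, the counting tool and the annotation are not given in the sources used here. The labels name a 3′ end library kit and the study's methods name other kits for part of the libraries, so no levels were compared between genes.

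Counts were filtered with filterByExpr, scaled by TMM and tested with the quasi-likelihood F test of edgeR 4.0.16 in R 4.3.3, with Benjamini-Hochberg adjustment over all genes tested. All 18 microglial libraries shared 1 fit of 6 groups, and the 13 hippocampi 1 fit of 2 groups. CPM are counts over TMM-scaled library size, and means of log2 CPM used a pseudocount of 0.5. Depth, 17037459 to 35779977 counts per library, limits the precision of genes with few counts. Coordinates come from GENCODE M21 and RefSeq, both on GRCm38. The steps were tested on simulated data. Alternatives tried were RLE scaling, DESeq2 1.42.0 (Wald test), all genes with a count, no minimum fold, other covariates, fits of only the groups compared, a block by replicate number and each library left out in turn.

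Named were the 6 genes, up to 5 called genes with the lowest adjusted p from each gene list in 3 comparisons, the 3 genes of nearest pattern per member, Cgas and Mapt. Other genes named from the lists (Ube2l3, Uba1 and the HERC ligases among them) were chosen after their values were seen, and some list genes are not reported here. The members and lists were chosen with earlier results of these data known.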

Additional observations from a re-analysis of the deposited data

Results flagged for a closer look

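The response to tau differed between the genotypes by the test of the interaction itself for all 6 genes, although the calls of Uba7 and Ube2l6 were lost in 4 and 8 of 12 fits with a library left out, and that of Ube2l6 also with DESeq2, RLE scaling and only the groups compared. The log2 response of KO minus that of WT microglia was 2.89 for Isg15, 0.44 for Uba7, 0.40 for Ube2l6, 1.16 for Herc6, 3.70 for Usp18 and 1.66 for Rnf213. Each KO response began from a lower vehicle level, and the gain in CPM was smaller in KO cells for each of the 6.

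The response to HT-DNA differed in the opposite direction, by -2.11 for Isg15, -1.67 for Uba7, -1.67 for Ube2l6, -2.05 for Herc6, -1.56 for Usp18 and -1.56 for Rnf213.

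Dixon's test for a sample far from the others was run for each of the 6 genes in each of the 2 groups of mice, 12 tests that share the same mice, and 2 were past its limit, both in Ntg hippocampus. Mouse 55 had the highest Isg15 level, 2.18 CPM, and mouse 62 the highest Herc6 level, 4.24 CPM. Chance alone gives such a sample in about 1 of 20 independent groups.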

How the results depend on the processing

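Of the member results, 75 of 78 kept their direction and side of the threshold with DESeq2, 77 of 78 with RLE scaling, 75 of 78 without a filter and 65 of 66 with only the groups compared. The number of genes called in P301S mice, 3, was 5 with DESeq2, 5 without a filter and 0 with the general microglia marker mean as a covariate, where Ube2l6 reversed to -0.0031, and 0 to 6 with 1 mouse left out. Without a minimum fold, the genes called for tau against HT-DNA in WT cells went from 0 to 6 and those for KO tau against WT vehicle from 0 to 4. The cause was not tested, beyond the removal of the fold threshold itself.

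With a library left out, log2 values changed sign for Uba7 with HT-DNA in KO cells (-0.10 to 0.0436), for Isg15 (-0.51 to 0.0141) and Usp18 (-0.49 to 0.0276) in KO tau against WT vehicle, and for the interaction of sex with the transgene of Ube2l6 (-0.44 to 0.0644), Herc6 (-0.74 to 0.15), Usp18 (-0.79 to 0.72) and Rnf213 (-0.066 to 0.94). None of these was called.

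Same-numbered microglial libraries did not deviate together (r of -0.109 to 0.121 over 45 pairs). With 3 libraries per group and genes of all count levels, this cannot decide whether they share a litter or culture. The labels do not say what the numbers mark. With the replicate number as a block, 66 of 66 member results kept their call: 6 genes were called in each comparison that had 6, and 0 where there were 0.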
